A study of Mus musculus with 6 samples.

Results

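Sox10, Foxd3, S100b, Fabp7, Phox2a, Hand2 and Tlx2 are genes by which the neural crest cells of the gut and the neurons and glia they form are recognised. The list of 7 genes was drawn up with earlier results of these data known, and its rule uses no measured value to pick them. They were read from 19938 genes on Affymetrix arrays of mouse stomach, each through the probe set annotated to that symbol alone with the highest mean over the 6 arrays. Each of the 7 had a single such probe set. RNA came from whole stomach at E13.5 (the embryonic day), with 3 arrays labelled wild type and 3 labelled Nkx3.2Cre;R26-SmoM2 (SmoM2 here). SmoM2 is a constantly active form of Smoothened, the transducer of hedgehog signals, which Cre switches on at the Rosa26 locus in cells that use, or descend from cells that used, the gene Nkx3-2 of the stomach mesenchyme. The wild type label names neither allele. Nothing in the labels says whether a replicate was an embryo or a pool, so p-values measure how far these arrays varied, technical variation included. Values are log2 signals, on which a difference of 1 is a doubling.

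Enteric neurons and glia descend from neural crest cells that leave the hindbrain region, enter the foregut and migrate along it through the mesenchyme. Migrating cells carry Sox10 and the receptors Ret and Ednrb. Cells that become neurons lose Sox10 and keep Phox2 and Hand factors, while cells that become glia keep Sox10 and add glial proteins. Hedgehog ligands from the gut epithelium act on the mesenchyme that these cells cross.

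The groups carried the readout of the pathway that the labels imply. Hhip, a hedgehog-binding protein induced by the pathway, stood at 10.36, 10.49 and 10.42 in wild type 1, 2 and 3 and at 11.73, 11.70 and 11.67 in SmoM2 1, 2 and 3 (limma adjusted p = 0.000175), and Ptch1, the receptor and itself a target, rose by 0.48 (SE 0.07, adjusted p = 0.0174). Ptch1 lost its call without wild type 1, wild type 2 or SmoM2 3 (adjusted p = 0.102, 0.0745 and 0.0749) and with a covariate for Y-linked genes (adjusted p = 0.325). Gli1, a zinc finger factor that the pathway switches on, was at 10.05 ± 0.13 and 10.47 ± 0.12 (SD, n = 3, limma adjusted p = 0.0727). Over all genes the arrays fell into 2 sets that cross the groups, wild type 1, wild type 2 and SmoM2 2 in set 1 and wild type 3, SmoM2 1 and SmoM2 3 in set 2, with correlations from 0.9934 to 0.9946 within the sets and from 0.9825 to 0.9916 between them. The sets were read from the data, and the labels name no batch. Xist, the transcript of the inactive X chromosome, was at 7.11 in wild type 1 and at 11.43 to 12.37 on the other arrays, while Y-linked Eif2s3y was at 10.40 and 10.09 in wild type 1 and 2 and at 8.58 to 9.19 on the other 4, so the samples did not hold the same mix of sexes. Results for the 7 genes are therefore given within each array set as well, and with a covariate for the Y-linked signal where that moved a call. Both arrays with the high Y-linked signal were wild type, so this covariate and the group cannot be fully told apart. With it 22 of all genes were called, against 196 without it, so a call lost under it does not assign a difference to sex.

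Among the 7 genes, Fabp7 fell in SmoM2 and the other 6 did not pass the threshold of adjusted p 0.05. Over all 19938 genes 0.983% were called, 0.657% lower and 0.326% higher. With 7 genes, a count of 1 cannot be read as particular to them. Hand2 lay lower and Foxd3 higher on every SmoM2 array than on every wild type array without passing. Groups that did not overlap, as in these 3 genes, were found in 15.7% of all genes (10.1% lower and 5.64% higher). The median difference of the 7 genes was 0.09 and that of all genes 0.00. Sox10, the factor that marks crest cells and glia most directly, had overlapping groups.

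The upstream sequences of Fabp7, Hand2 and Foxd3 are shown because these are the 3 genes whose groups did not overlap. The RefSeq sequence table used here (GRCm38.p6) paired 5 of the 7 genes with an upstream sequence, and the 250 bases before the annotated start are printed 5′ to 3′. Capitals mark letters searched on both strands, namely the E-box CANNTG that basic helix-loop-helix factors such as Hand2 read, and the core TAAT that homeodomain factors such as Phox2a and Tlx2 read.
Fabp7 (chr10:57784673-57784922, plus strand): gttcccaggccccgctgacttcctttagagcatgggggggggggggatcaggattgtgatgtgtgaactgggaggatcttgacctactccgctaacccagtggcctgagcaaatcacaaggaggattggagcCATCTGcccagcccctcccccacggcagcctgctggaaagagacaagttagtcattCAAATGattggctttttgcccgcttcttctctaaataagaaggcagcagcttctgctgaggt
Hand2 (chr8:57320733-57320982, plus strand): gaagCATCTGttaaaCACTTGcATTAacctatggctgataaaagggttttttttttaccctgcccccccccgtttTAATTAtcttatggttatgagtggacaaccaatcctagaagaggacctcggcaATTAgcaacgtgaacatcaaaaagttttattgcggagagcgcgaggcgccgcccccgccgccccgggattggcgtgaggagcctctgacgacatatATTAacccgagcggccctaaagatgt
Foxd3 (chr4:99656049-99656298, plus strand): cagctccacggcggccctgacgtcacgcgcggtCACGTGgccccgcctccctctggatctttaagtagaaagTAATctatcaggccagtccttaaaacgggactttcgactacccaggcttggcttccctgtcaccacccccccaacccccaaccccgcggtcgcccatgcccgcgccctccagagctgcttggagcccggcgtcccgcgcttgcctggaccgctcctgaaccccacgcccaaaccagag
Fabp7 held 2 E-boxes, which begin 118 and 62 bases before the start, and 0 TAAT cores. Hand2 held 2 E-boxes, at 246 and 235 bases, and 5 TAAT cores, the pair at 175 and 173 bases overlapping in TAATTA. Foxd3 held 1 E-box, CACGTG at 217 bases, and 1 TAAT core at 178 bases. These letters are common, since 66.2% of 32851 upstream windows of this length held an E-box and 54.9% a TAAT core. The Sox letters ACAAAG and ACAATG (in 16.5% and 10.7% of all windows) and the Gli letters GACCACCCA (in 0.225%) were in none of the windows of Fabp7, Hand2, Foxd3, Phox2a and S100b. A match or its lack in this window is a description of letters only.

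Fabp7, a cytosolic carrier of fatty acids found in glial precursors and Schwann cell precursors, showed the clearest difference. It stood at 11.65, 11.35 and 11.41 in wild type 1, 2 and 3 and at 10.79, 10.58 and 10.90 in SmoM2 1, 2 and 3. All 3 SmoM2 arrays lay below all 3 wild type arrays, and the gap between the groups (from 10.90 to 11.35) was wider than the spread within either. The mean fell from 11.47 ± 0.16 to 10.76 ± 0.16 (SD, n = 3), a 1.64-fold lower signal (log2 difference -0.71, SE 0.11, 95% interval -0.95 to -0.47, limma adjusted p = 0.0199). It was the gene with rank 74 of 19938 by p-value. Within set 1 the difference was -0.92 and within set 2 it was -0.56, and with the set as a term it was -0.74 (adjusted p = 0.00883). The call was lost without wild type 1 (-0.62, adjusted p = 0.0876), without SmoM2 1 (-0.73, adjusted p = 0.0665) or without SmoM2 3 (-0.78, adjusted p = 0.0655). A covariate for the Y-linked signal gave a difference of -0.58 (adjusted p = 0.331).

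**Figure D1:**
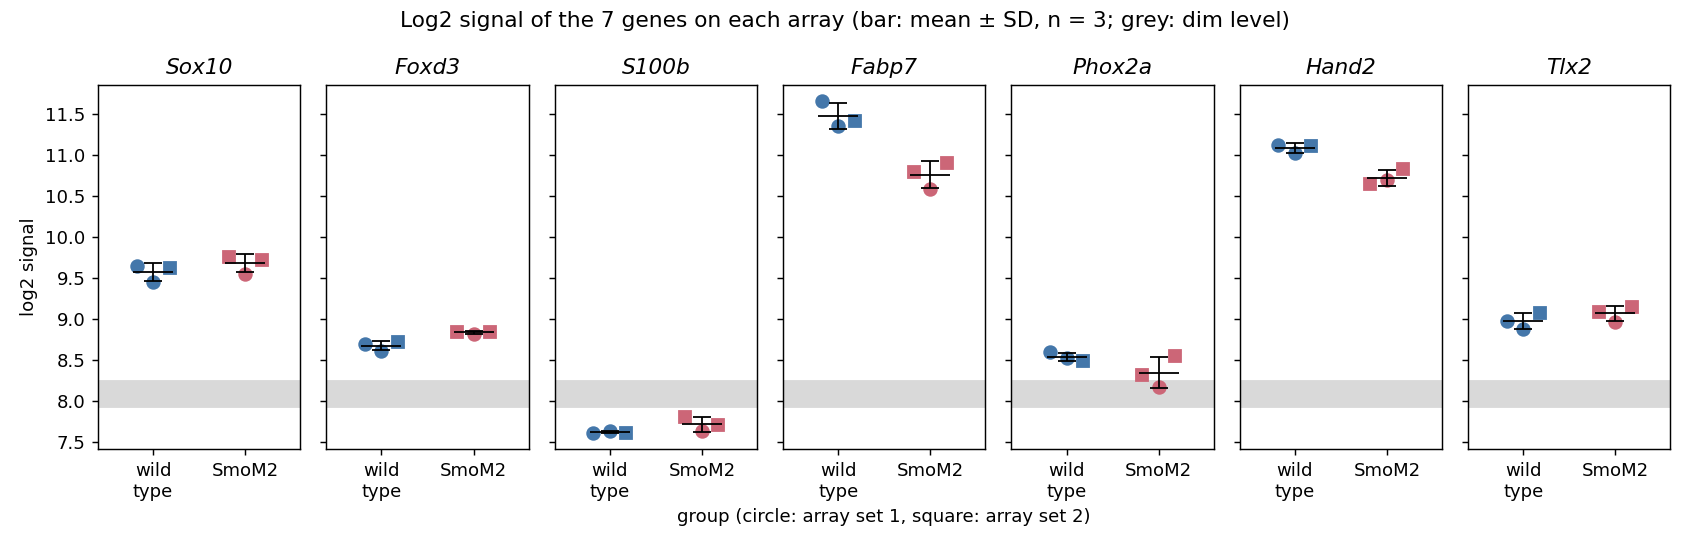
The vertical axis gives the log2 signal of each gene on each array, with blue points for wild type and red points for SmoM2, circles for array set 1 and squares for array set 2, and black bars for the mean ± SD (n = 3). The grey band spans the 95th percentile of receptor genes that the stomach is not known to use, 7.93 to 8.25 over the arrays; the red points of Fabp7 and Hand2 lie below their blue points, and S100b lies below the band.

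Sox10, the HMG-box factor that crest cells need to colonise the gut and that glia keep, was at 9.65, 9.45 and 9.62 in wild type and at 9.76, 9.55 and 9.72 in SmoM2. The groups overlapped, since SmoM2 2 (9.55) lay below wild type 1 and wild type 3. Means were 9.57 ± 0.11 and 9.68 ± 0.11 (SD, n = 3), a log2 difference of 0.11 (SE 0.09, 95% interval -0.08 to 0.30, limma adjusted p = 0.756). The lower end of that interval, -0.08, lies above the upper end for Fabp7, -0.47. Within the array sets the Sox10 differences were 0.00 and 0.13. No difference was detectable, and the interval still allows a rise of up to 0.30.

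Foxd3, a forkhead factor that keeps crest cells in a progenitor state, was at 8.70, 8.61 and 8.72 in wild type and at 8.85, 8.82 and 8.85 in SmoM2. Every SmoM2 array was above every wild type array, but the step was small. The log2 difference was 0.16 (SE 0.07, 95% interval 0.01 to 0.31, limma adjusted p = 0.427), with 0.16 and 0.12 within the array sets.

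S100b, a calcium-binding protein that appears late in the glial lineage, was not above the dim level on any of the 6 arrays. The dim level here is the 95th percentile of 1190 olfactory and vomeronasal receptor genes on the same array. S100b read 7.62, 7.64 and 7.62 in wild type and 7.81, 7.64 and 7.71 in SmoM2, against dim levels from 7.93 to 8.25, so these readings say little about its transcript and no fold is given. The other 6 genes were above the dim level on 6 of 6 arrays, Phox2a by the smallest margin.

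The 3 neuronal factors did not share a direction. Hand2, a basic helix-loop-helix factor needed for enteric neurons to mature and also made by gut mesenchyme, was at 11.12, 11.02 and 11.11 in wild type and at 10.64, 10.69 and 10.83 in SmoM2. Every SmoM2 array was lower than every wild type array. The log2 difference was -0.36 (SE 0.08, 95% interval -0.53 to -0.20, limma adjusted p = 0.0659), and it was -0.38 within set 1 and -0.38 within set 2. With the array set as a term it passed (-0.38, adjusted p = 0.0398). Leaving out 1 array gave values from -0.42 to -0.32, none of which passed.

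Phox2a, a homeodomain factor that drives the noradrenergic programme and acts on Dbh, was at 8.60, 8.53 and 8.49 in wild type and at 8.32, 8.18 and 8.55 in SmoM2. SmoM2 1 and SmoM2 2 were below all wild type arrays while SmoM2 3 was not, so the groups overlapped. The log2 difference was -0.19 (SE 0.10, 95% interval -0.40 to 0.03, limma adjusted p = 0.567), and it came to -0.38 within set 1 and -0.05 within set 2. Tlx2, a homeobox factor that limits the number of enteric neurons, was at 8.98, 8.88 and 9.08 in wild type and at 9.09, 8.97 and 9.15 in SmoM2. Its groups overlapped, with a log2 difference of 0.09 (SE 0.08, 95% interval -0.09 to 0.27, limma adjusted p = 0.788) and 0.04 within each array set.

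**Figure D2:**
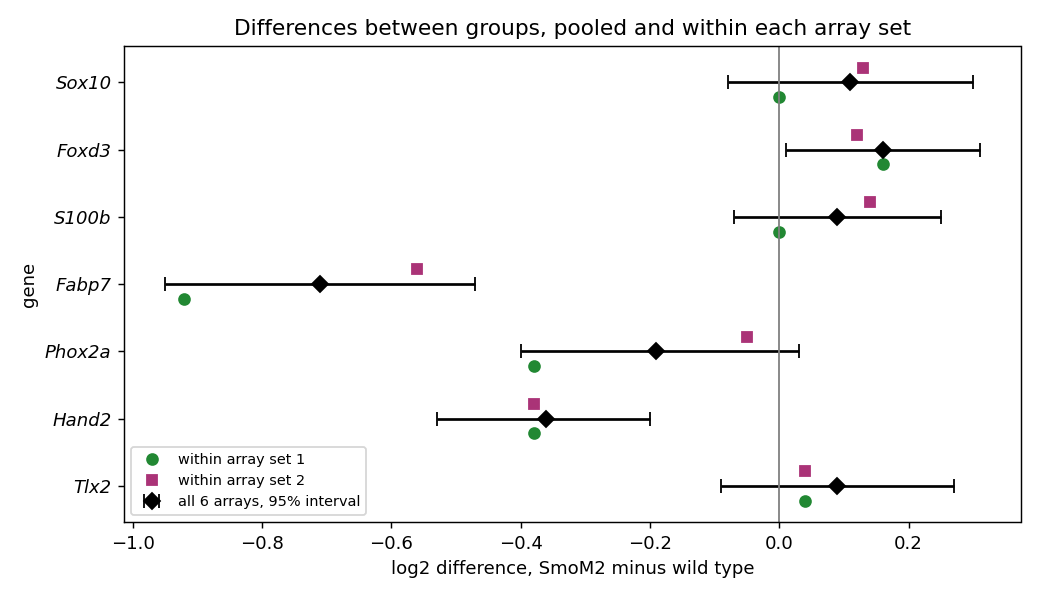
The horizontal axis gives the log2 difference, SmoM2 minus wild type, of each gene on the vertical axis; diamonds and bars are the value over 6 arrays with its 95% interval, and coloured points are the differences within array set 1 and array set 2. The intervals of Fabp7 (-0.95 to -0.47) and Hand2 (-0.53 to -0.20) lie below 0, and Phox2a was at -0.38 within set 1 and -0.05 within set 2.

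In stomach tissue measured as a whole, fewer cells of a type and less RNA per cell cannot be told apart. Differences between genes on the same array are given for 6 pairs. The pairs were chosen after their values were seen, so they are a description with no test, and that their groups do not overlap follows in part from the choice.

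Fabp7 less Sox10 was 2.01, 1.90 and 1.79 in wild type and 1.03, 1.03 and 1.18 in SmoM2, a shift of -0.82, with every SmoM2 array below every wild type array. Fabp7 less Fabp5, a paralog that was at 11.73 ± 0.10 and 11.69 ± 0.14 (SD, n = 3, limma adjusted p = 0.940), shifted by -0.68. Hand2 less Hand1, its paralog in the gut mesenchyme, went from -0.01 ± 0.17 to -0.44 ± 0.14 (SD, n = 3), a shift of -0.43.

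The paralog Tlx1, without which mice form no spleen, fell from 9.28 ± 0.05 to 8.33 ± 0.11 (SD, n = 3, log2 difference -0.94, limma adjusted p = 0.00135), and Tlx2 less Tlx1 shifted by 1.04. Foxd1, a forkhead gene of mesenchyme and the paralog of Foxd3 with the largest difference, rose from 8.12 ± 0.07 to 8.59 ± 0.08 (adjusted p = 0.0241), and Foxd3 less Foxd1 shifted by -0.31. Foxd1 lost its call without wild type 1, wild type 2, SmoM2 1 or SmoM2 3 (adjusted p = 0.140, 0.0842, 0.0716 and 0.0950). Phox2a less Dbh, the enzyme gene that Phox2a activates, went from -1.17 ± 0.04 to -0.54 ± 0.13, a shift of 0.62, since Dbh fell by 0.81 and Phox2a had a difference of -0.19. Phox2a stood near the dim level in SmoM2 1 and SmoM2 2 (8.32 and 8.18, against 8.25 and 7.97). That level is no floor, since the receptor genes had medians of 6.40 and 6.16 on these arrays. Whether the low signal of Phox2a bears on its difference was not tested. With a covariate for Y-linked genes the adjusted p of Foxd1 was 0.482 and that of Tlx1 0.0235. Of 13 measured paralogs of the 7 genes, 1 rose, 1 fell and 11 did not pass, where 0.326% of all genes rose and 0.657% fell.

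**Figure D3:**
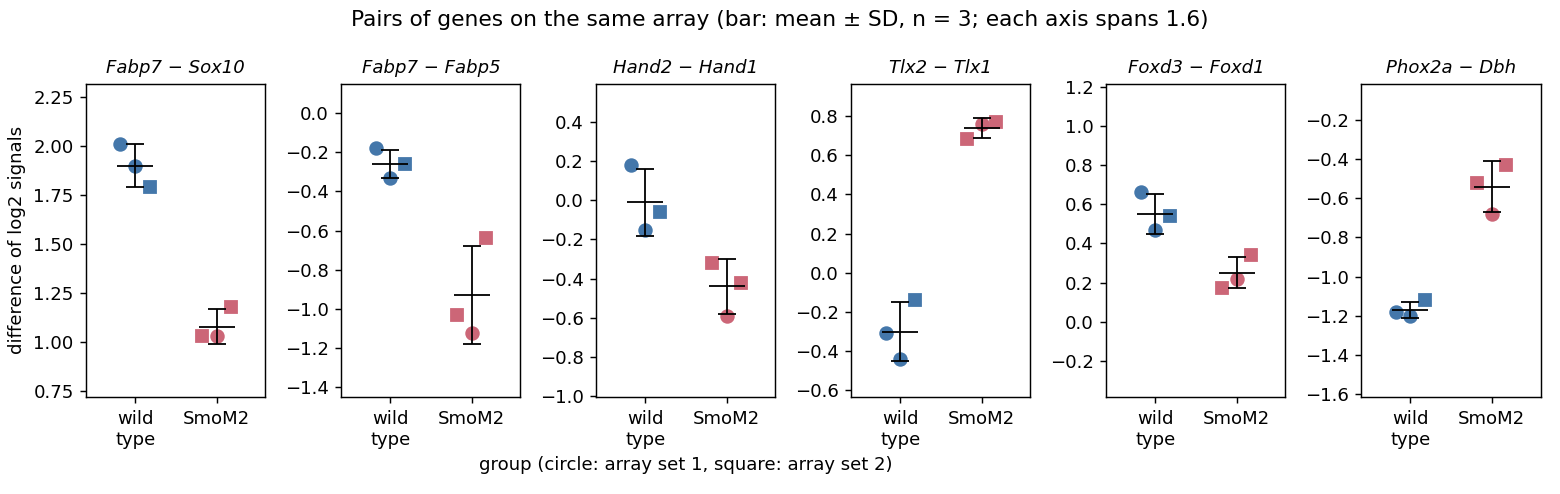
Each panel gives the difference of log2 signals between 2 genes on the same array, with points by array (blue wild type, red SmoM2, circles set 1, squares set 2), bars for the mean ± SD (n = 3), and axes of equal span. The red and blue points are apart in all 6 pairs, with the widest shift for Tlx2 less Tlx1 (1.04) and the smallest for Foxd3 less Foxd1 (-0.31).

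Other genes of the lineage were read from lists, each of which includes the members that belong to it. Of 19 measured crest progenitor genes 0 rose, 0 fell and 19 did not pass in limma, with a median of 0.02 and 6 at an unadjusted p under 0.05, where 2098 of all 19938 genes stood. In 8 of the 19 the groups did not overlap (6 lower and 2 higher), a larger share than the 15.7% of all genes (10.1% lower and 5.64% higher). No set test was run on this or on the list counts below. The largest differences were -0.41 for the cadherin gene Cdh6 (SE 0.09, limma adjusted p = 0.0784) and -0.38 for the progenitor factor Sox2 (SE 0.13, adjusted p = 0.276), which gut epithelium also makes. Without wild type 3 the list had 2 genes lower, and without SmoM2 2 it had 1.

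The list of glia and Schwann cell precursors had a median of -0.02. It had 1 member lower, Fabp7, 0 higher and 21 not past the threshold, where 0.657% of all genes were called lower and 0.326% higher. Cdh19, a cadherin of Schwann cell precursors, pointed the other way, at 8.48, 7.97 and 7.88 in wild type and 8.52, 8.85 and 8.78 in SmoM2. Its groups did not overlap, and the log2 difference of 0.61 (SE 0.15) did not pass (limma adjusted p = 0.125). Wild type 1 (8.48) was close to SmoM2 1 (8.52), and without wild type 1 the difference passed (0.79, adjusted p = 0.0377), as it did with the array set as a term (0.70, adjusted p = 0.0276). In wild type 2 and 3 Cdh19 was near or below the dim level of those arrays (7.93 and 8.14), so the size of its difference is uncertain.

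Of 18 measured neuronal transcription factors 0 rose and 0 fell in limma (6 at an unadjusted p under 0.05), and the median was -0.14. In 12 of the 18 the difference was negative, against 9817 of all 19938 genes. In 8 of the 18 every SmoM2 array was below every wild type array, a larger share than the 10.1% of all genes. Isl1, a LIM homeodomain factor of neurons and of stomach mesenchyme, had a difference of -0.37 (SE 0.10, limma adjusted p = 0.143). Genes of neuronal structure and transmission were lower in part. Among 26 genes of neuronal structure and transmitters 5 fell, 0 rose and 21 did not pass, where 0.657% of all genes fell and 0.326% rose. Of the 26 differences 22 were negative, against 9817 of all 19938, and the median was -0.12.

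Dcx, a microtubule protein of young neurons, fell by 1.07, Nefm and Nefl, subunits of neurofilaments, fell by 1.01 and 0.84, and Dbh, which makes noradrenaline, fell by 0.81 (limma adjusted p = 0.00660, 0.00244, 0.0286 and 0.00251). The fifth was Ddc, which makes dopamine and serotonin (log2 difference -0.68, adjusted p = 0.0286). Dcx lost the call without SmoM2 3 (adjusted p = 0.0562), Nefl without wild type 1, wild type 2 or SmoM2 3 (adjusted p = 0.140, 0.0921 and 0.0702), and Ddc without wild type 1, wild type 2, SmoM2 1 or SmoM2 3 (adjusted p = 0.133, 0.0672, 0.105 and 0.141). Adding the Y-linked covariate left Nefm and Dbh called (adjusted p = 0.0356 and 0.0438), and Dcx, Nefl and Ddc not (0.0887, 0.436 and 0.363). In 10 of the 26 genes of that list the groups did not overlap, all 10 lower, against 10.1% of all genes. Stmn2 (-0.50, limma adjusted p = 0.0901) and Slc18a2 (-0.48, adjusted p = 0.0690) did not pass but were among the 10. In others, such as Elavl4 and Uchl1, the groups overlapped. Stmn2, Slc18a2, Elavl4 and Uchl1 were picked after their values were seen. Elavl4, an RNA-binding protein of young neurons, was at 8.91 ± 0.09 and 8.83 ± 0.17 (SD, n = 3, limma adjusted p = 0.864), and Uchl1, a ubiquitin hydrolase abundant in neurons, at 10.32 ± 0.19 and 10.33 ± 0.21 (adjusted p = 0.986).

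Signals that guide crest cells were higher in part. Of 22 measured ligands, receptors and guidance genes 3 rose, 0 fell and 19 did not pass, where 0.326% of all genes rose and 0.657% fell. The median was 0.03. The groups did not overlap in 9 of the 22, 5 higher and 4 lower, larger shares than the 5.64% and 10.1% of all genes. Among the 4 was the hedgehog ligand Shh, at -0.43 (SE 0.08, limma adjusted p = 0.0532). Sema3a, a secreted repellent of axons, rose by 0.72, Gdnf, the mesenchymal ligand of Ret, by 0.49, and Nrg1, a ligand of the glial receptor Erbb3, by 0.44 (limma adjusted p = 0.00287, 0.0247 and 0.0201). Gdnf lost its call without wild type 1, wild type 2, SmoM2 2 or SmoM2 3 (adjusted p = 0.0960, 0.103, 0.0502 and 0.153). Nrg1 lost it without wild type 1, wild type 2, SmoM2 1 or SmoM2 3 (adjusted p = 0.125, 0.0801, 0.0553 and 0.133). Adding the Y-linked covariate left Sema3a called (adjusted p = 0.0324), and Gdnf and Nrg1 not (0.173 and 0.305). The receptors on crest cells did not pass, with Ret at a difference of 0.05 (SE 0.09, adjusted p = 0.904), Ednrb at a difference of 0.32 (SE 0.11, adjusted p = 0.277) and Erbb3 at -0.23 (SE 0.08, adjusted p = 0.296).

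**Figure D4:**
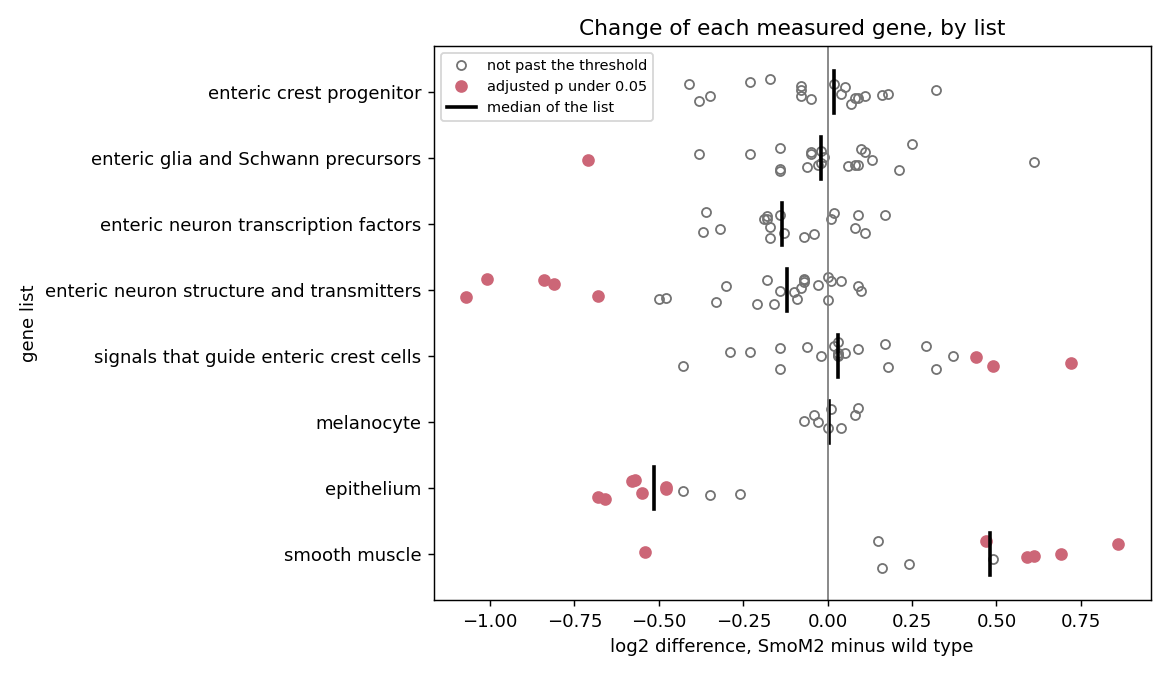
Each point is the log2 difference, SmoM2 minus wild type, of a measured gene (horizontal axis) in its list (vertical axis), filled where the adjusted p was under 0.05, and black lines mark list medians. Points of crest progenitors, glia and melanocytes centre near 0 (medians 0.02, -0.02 and 0.00), the neuronal lists have medians of -0.14 and -0.12, and epithelium and smooth muscle stand apart at -0.51 and 0.48.

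Markers of other cell types moved as well. Of 10 epithelial markers 7 fell and 0 rose, where 0.657% of all genes fell and 0.326% rose. The log2 of their summed signal was from 14.15 to 14.31 in wild type and from 13.59 to 13.75 in SmoM2. Of 10 smooth muscle markers 5 rose and 1 fell, against the same shares of all genes. Their log2 summed signal ran from 13.79 to 13.88 in wild type and from 14.21 to 14.44 in SmoM2. The epithelial count was 0 without wild type 1, 0 without SmoM2 3 and 0 with the Y-linked covariate, and from 4 to 7 without each other array. The smooth muscle count was 1 higher and 0 lower without wild type 1, without SmoM2 3 and with the Y-linked covariate, and 2 higher and 0 lower without wild type 2 or SmoM2 1. For comparison, the log2 summed signal of the 19 progenitor genes was 14.61 to 14.73 in wild type and 14.60 to 14.74 in SmoM2. That of the glial list overlapped too (14.25 to 14.35 and 14.20 to 14.29). Sums were lower for the 7 genes (12.73 to 12.92 and 12.39 to 12.60) and neuronal factors (15.37 to 15.42 and 15.18 to 15.30). They were lower for neuronal structure and transmitters (14.26 to 14.44 and 13.93 to 14.09) and higher for guidance signals (14.81 and 14.95 to 15.09). Opposite changes can cancel in a sum, which its brightest genes lead. Endothelial, leukocyte and erythroid markers had 0 of 8, 0 of 8 and 0 of 6 past the threshold in limma. At an unadjusted p under 0.05 were 3, 6 and 4 of them, where 2098 of all 19938 genes stood. Every one of their differences was negative, with medians of -0.14, -0.23 and -0.21. In 5, 5 and 3 of them every SmoM2 array was below every wild type array, against 10.1% of all genes. All of the measured epithelial, muscle, endothelial, leukocyte and erythroid markers were above the dim level on at least 1 array. The part of these cell types in the differences of Fabp7 and Hand2 was not tested.

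Melanocytes are another crest lineage that uses Sox10. Of 8 melanocyte markers 0 passed in limma, with 0 at an unadjusted p under 0.05 and a median of 0.00, and Dct, Tyr, Tyrp1 and Gpr143 were not above the dim level on any array. Mlana and Slc45a2 were above it on 6 arrays, Pmel on 5 and Mitf on 4. Gut mesenchyme also makes Hand2. Of 12 genes listed for it, read here in whole stomach, 2 rose, 0 fell and 10 did not pass, where 0.326% of all genes rose. The forkhead genes Foxf2 and Foxf1 rose by 0.91 and 0.37 (limma adjusted p = 0.00197 and 0.0366), against the sign of Hand2. Over the 12 genes 7 differences were positive and 5 negative. Gata4 (-0.36, limma adjusted p = 0.0532) and Isl1 (-0.37, adjusted p = 0.143) had the sign of Hand2 without passing. Bmp4 (0.37, adjusted p = 0.0635) had the opposite sign, also without passing. Leaving out any 1 array ended the call of Foxf1 (adjusted p from 0.0598 to 0.219), while Foxf2 kept it (at most 0.0191). Adding the Y-linked covariate gave 0.431 for Foxf1 and 0.0320 for Foxf2.

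The 3 genes whose profile over the 6 arrays was nearest to that of Fabp7, by the root mean square difference of values centred on each gene's mean, were Col8a1 (0.078), Cym (0.079) and AI593442 (0.098). Col8a1, a collagen gene, fell by 0.72 (SE 0.08, limma adjusted p = 0.00427), Cym, the milk-clotting protease of the stomach, by 0.81 (adjusted p = 0.00373), and AI593442 by 0.55 (adjusted p = 0.0317). AI593442 kept its call only without wild type 3 among the fits that left out 1 array (adjusted p = 0.0312), and with the Y-linked covariate the 3 genes had an adjusted p of 0.0857, 0.0693 and 0.556. None of them is on the lists of crest, glia, neurons or guidance signals, which together hold 98 of the 19938 measured genes. Most genes are on none of these lists, so this absence is no test of whether Fabp7 follows crest or glia. A near profile over 6 arrays also reflects in large part a similar difference between the groups.

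**Figure D5:**
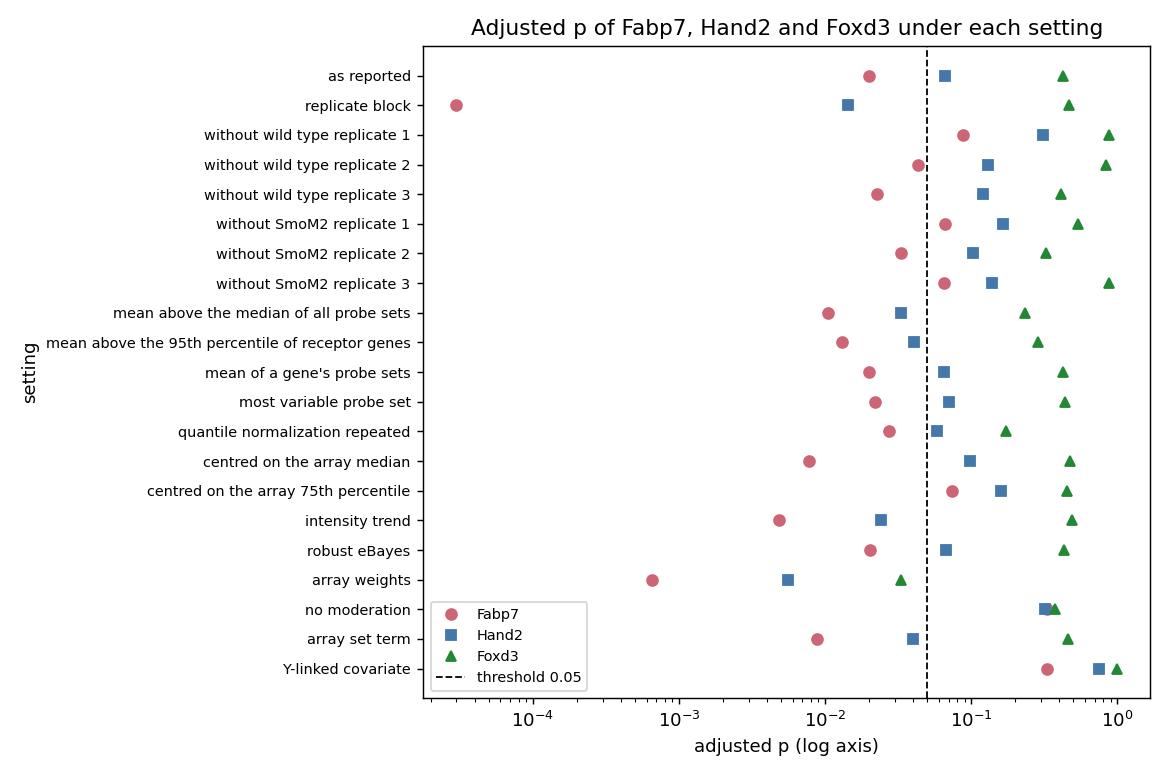
The horizontal log axis gives the adjusted p of Fabp7, Hand2 and Foxd3 under each setting on the vertical axis, with a dashed line at the threshold of 0.05. Fabp7 passed under 14 of 20 alternatives, Hand2 under 6 and Foxd3 under 1.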

How the data were processed

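The authors deposited log2 signals of 35556 probe sets on 6 arrays (3 wild type, 3 SmoM2). Total RNA was biotin-labelled, per the labels' protocols. The submitters' processing notes name RMA and affy (versions: not given in the sources used here). Since RMA gives arrays a shared distribution, it hides a change in total RNA. Array medians ran from 8.56 to 8.62. The number of arrays limits the precision.

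Platform annotation gave 1 symbol to 21789 probe sets, several to 1621 and none to 12146. Gene identifiers of 21698 matched RefSeq, and 0 symbols changed. The probe set with the highest mean stood for each of 19938 genes.

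Groups were compared with limma 3.58.1 in R 4.3.3 (lmFit, eBayes), with Benjamini-Hochberg adjustment over all genes. Intervals are 95%. The fit was tested on simulated data. The 7 genes and the lists were chosen with earlier results of these data known. The rule for names took the 7 genes, Gli1, Ptch1 and Hhip, and of each list up to 4 called genes with the largest change or, with fewer than 2 called, the 2 largest changes. It also took the 3 nearest profiles and the nearest paralog by protein identity, which was not run. Of epithelial, muscle, vessel and blood lists only counts are given. Ddc, Elavl4, Uchl1, Stmn2, Slc18a2, Ret, Ednrb, Erbb3, Fabp5, Hand1, Gata4, Bmp4 and Shh were named after their values were seen. Alternatives comprised 18 planned settings and 2 added after seeing the data (array set, and the mean of Eif2s3y, Kdm5d and Uty).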

Additional observations from a re-analysis of the deposited data

How the results depend on the processing

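The sign of each of the 7 genes was the same in all alternatives that could be fitted, 137 combinations of gene and setting, of which 124 kept their side of the threshold, 6 lost a call (Fabp7) and 7 gained one (Hand2 under 6, Foxd3 under 1). S100b drops out under both filters on dim probe sets and Phox2a under the filter at the median. For Fabp7 the adjusted p was 0.0740 with centring on the array 75th percentile, 0.330 without variance moderation and 0.331 with the Y-linked covariate, and its difference ranged from -0.78 to -0.58. The replicate block called 2 of the 7 genes (Fabp7, and Hand2 at an adjusted p of 0.0143), 698 of all genes (196 without it) and 21 of the 98 measured genes of the 5 enteric lists (9 without it). Same-numbered arrays of the groups had correlations of deviations of -0.10, 0.52 and 0.06, and wild type 1 and 3 correlated best with another number. Deviations of 3 arrays from their mean constrain one another, so these correlations do not settle whether the numbers pair the arrays. Leaving out 1 array gave 0 to 1 of the 7 genes, 32 to 247 of all genes and 3 to 11 of the enteric genes. Filters on dim probe sets (above the median of all, or above the 95th percentile of receptor genes) called 2 and 2 of the 7 and 16 and 14 enteric genes, from fewer genes tested. Centring on the 75th percentile called 0 of the 7 and 120 of all genes. An intensity trend called 2, 336 and 16 (of the 7, of all, of the enteric genes), the array set 2, 324 and 15, and the Y-linked covariate 0, 22 and 3. Array weights, whose estimation stopped before it converged, called 3, 4110 and 38. Ordinary least squares called 0, 0 and 0, with 3, 1873 and 30 at an unadjusted p under 0.05. The causes were not tested.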
